A study of Mus musculus with 36 samples.

Results

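Klf2, Klf4 and Klf5 are Krüppel-like zinc finger genes, and their loci were described here from ChIP-seq peak lists of mouse embryonic stem (ES) cells. Members were all deposited peaks in 3 windows of the mm9 genome: chr8:74760001-74920000 around Klf2, chr4:55450001-55620000 around Klf4 and chr14:99600001-99800000 around Klf5. The windows held 232 of the 292990 peaks of 14 lists, with 67 peaks at Klf2, 72 at Klf4 and 93 at Klf5. Of these, 205 came from the 11 lists of the transcription factors Nanog, Sox2 and Oct4, and 27 from the 3 lists of histone H3 trimethylated at lysine 4 (H3K4me3). Each peak carries a start, an end, a summit, the authors' fold enrichment over their control (the fold, below) and a q-value.

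The cells were KH2, an established mouse ES line, except in 1 Nanog list from TKO cells, which lack DNA methyltransferases. The labels give 4 culture states: serum medium with LIF, cells sorted as GFP-high in serum medium, 24 h in 2i medium with LIF, and 3 passages in 2i with LIF. Serum cultures grew on irradiated mouse fibroblast feeders, and the reporter behind the GFP sort is not named in the labels. 2i is a serum-free medium in which inhibitors of the MEK and GSK3 kinases hold ES cells in a uniform, naive state. Nanog was profiled with antibody lot 1 (20100713) in serum, at 24 h and at 3 passages, and with lot 2 (C01MG07) in TKO cells at 24 h, KH2 cells at 24 h and GFP-high serum cells. Sox2 and H3K4me3 were each profiled in serum, at 24 h and at 3 passages, and Oct4 at 24 h and in serum. Each condition has 1 list, so no spread between replicates could be computed and no difference between conditions was tested.

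Klf2, Klf4 and Klf5 are expressed in naive mouse ES cells and overlap in their work there. They bind CACCC and GC-rich DNA and sit at many of the enhancers that Oct4, Sox2 and Nanog also occupy, and joint loss of all 3 is known to harm self-renewal. Klf4 is one of the classic reprogramming factors and is known to respond to LIF through Stat3. Klf2 is held down by MEK signalling, which acts on the protein, and Klf2 is needed when ES cells are kept in 2i. Klf5 is also known for its role in the early blastocyst. In mouse ES cells, transcription of Klf4 is known to depend on a cluster of enhancers downstream of the gene.

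The promoters of Klf2 and Klf4 are shown because the factor sites described here lay outside the H3K4me3 regions of Klf2 and Klf5 and mostly outside that of Klf4. The sequences are the 250 bases before the annotated start in RefSeq, assembly GRCm38.p6, which is not the mm9 build of the peaks. In GRCm38.p6 they lie at chr8:72318812-72319061 on the plus strand and chr4:55532476-55532725 on the minus strand. Capitals mark the GC box GGGCGG or its reverse complement CCGCCC, a motif bound by the Sp and Klf families.
Klf2: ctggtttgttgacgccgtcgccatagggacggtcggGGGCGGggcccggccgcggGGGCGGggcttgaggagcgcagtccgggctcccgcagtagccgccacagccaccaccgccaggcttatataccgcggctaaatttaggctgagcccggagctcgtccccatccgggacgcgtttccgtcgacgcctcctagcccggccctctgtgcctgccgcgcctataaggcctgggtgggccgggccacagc
Klf4: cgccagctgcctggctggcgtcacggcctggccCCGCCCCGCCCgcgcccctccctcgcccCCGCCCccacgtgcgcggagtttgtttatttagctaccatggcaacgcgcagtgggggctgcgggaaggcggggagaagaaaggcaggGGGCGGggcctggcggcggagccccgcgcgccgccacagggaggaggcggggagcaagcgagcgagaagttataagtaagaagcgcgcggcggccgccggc
G and C made up 71.2% of the Klf2 promoter and 74% of the Klf4 promoter. A GC box was found 2 times in Klf2 and 4 times in Klf4, on either strand and with overlaps counted, and at least once in 32.7% of 32851 RefSeq mouse promoters of this length. This motif was added after the other searches had been read. The octamer ATGCAAAT of Oct4 (1.60% of promoters), the Sox core CATTGT (10.7%) and the Esrrb motif TCAAGGTCA (0.387%) had 0 matches in either promoter on either strand. The Stat motif TTCCNGGAA (0.913%), the Tcf motif CTTTGAT (3.21%) and the Klf motif in the form CCACACCC (3.20%) also had 0 matches in both. The shorter CACCC was not counted, and its reverse complement GGGTG occurs in the Klf2 sequence. Klf5 has no entry in the promoter table.

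The lists differed in length and in their limits, which bears on every count given here. The 6 Nanog lists held 21893 to 41755 peaks, the 3 Sox2 lists 8749 to 15310, the Oct4 lists 7820 at 24 h and 5011 in serum, and the H3K4me3 lists 17438 to 19287. The smallest −log10 q was 3.69 in the Sox2 list at 24 h and 86.4 in the Oct4 serum list, the extremes of the 14. Median folds lay between 5.95 (Sox2 at 24 h) and 20.1 (Oct4 at 24 h), so a fold is read here only against the other peaks of its own list. Lists of unequal length do not share a rank scale either, and a difference in rank between lists is not a measured change in binding. Peaks that overlapped by at least 1 bp were joined into sites, and positions of sites are given in kb from the centre of the gene's H3K4me3 region to the median summit of a factor site, or to the centre of another H3K4me3 region, with negative values toward lower coordinates.

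The 11 factor lists formed 49 sites in the windows, with 15 at Klf2, 15 at Klf4 and 19 at Klf5. Of these, 8 were called in all 11 lists (2 at Klf2, 3 at Klf4 and 3 at Klf5), where 3.11% of the 71038 sites of the whole genome were. Another 20 were called in 1 list only (3, 9 and 8 in the same order of genes), against 41.0% of all sites. Nanog was called at all but 1 site, against 95.6% of sites in the genome, and 34 sites held Nanog alone, against 69.4%. Sox2 was called at 13 sites, against 28.3%, and Oct4 at 13, against 12.3%. In serum, lot 1 Nanog, Sox2 and Oct4 were all called at 9 sites, against 5.07% of sites in the genome. At 24 h in 2i they were all called at 11 sites, against 8.14%, and 9 sites held all 3 factors in both states. These counts, and the 8 sites called in all 11 lists, include a long Klf5 site at 54.0 kb. Its summits fell in 3 groups, and no group held all 3 factors. With peaks joined by summits within 250 bp, Klf5 had 2 sites called in all 11 lists.

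Promoters were located by H3K4me3, a mark of active promoters, since no mm9 annotation was used. The widest H3K4me3 region called in all 3 H3K4me3 lists was taken in each window as a stand-in for the promoter of its Klf gene, and the start sites themselves were not placed. It was chr8:74842454-74847411 (4958 bp) for Klf2, chr4:55540063-55547118 (7056 bp) for Klf4 and chr14:99696951-99701774 (4824 bp) for Klf5. In RefSeq gene order, the nearest protein-coding neighbours are Ap1m1 and Eps15l1 for Klf2, Rad23b and Actl7b for Klf4, and Pibf1 and Klf12 for Klf5. RefSeq places Klf2 on the plus strand and Klf4 on the minus strand, so lower coordinates lie downstream of Klf4.

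At Klf2, the H3K4me3 peak stood much higher among the peaks of the 2i lists than of the serum list. Its highest fold was 16.5 in serum, above 64.0% of that list's peaks. At 24 h in 2i it was 30.3, above 99.2% of the list, and at 3 passages it was 44.4, also above 99.2%. By −log10 q, the peak stood above 77.9% of the serum list, 98.7% of the 24 h list and 98.8% of the list at 3 passages. The covered length did not follow the fold: the mark spanned 4856 bp in 1 peak in serum, 4082 bp in 2 peaks at 24 h and 4689 bp in 1 peak at 3 passages. The summit lay at position 74843153 in serum, and at 74844628 at 24 h and 74844623 at 3 passages. Another H3K4me3 region at the low end of the window, chr8:74763220-74764914, not assigned to a gene here, had folds of 14.5 in serum, 6.30 at 24 h and 8.25 at 3 passages, each in the middle ranks of its list (above 57.2%, 35.8% and 40.3% of peaks).

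**Figure D1:**
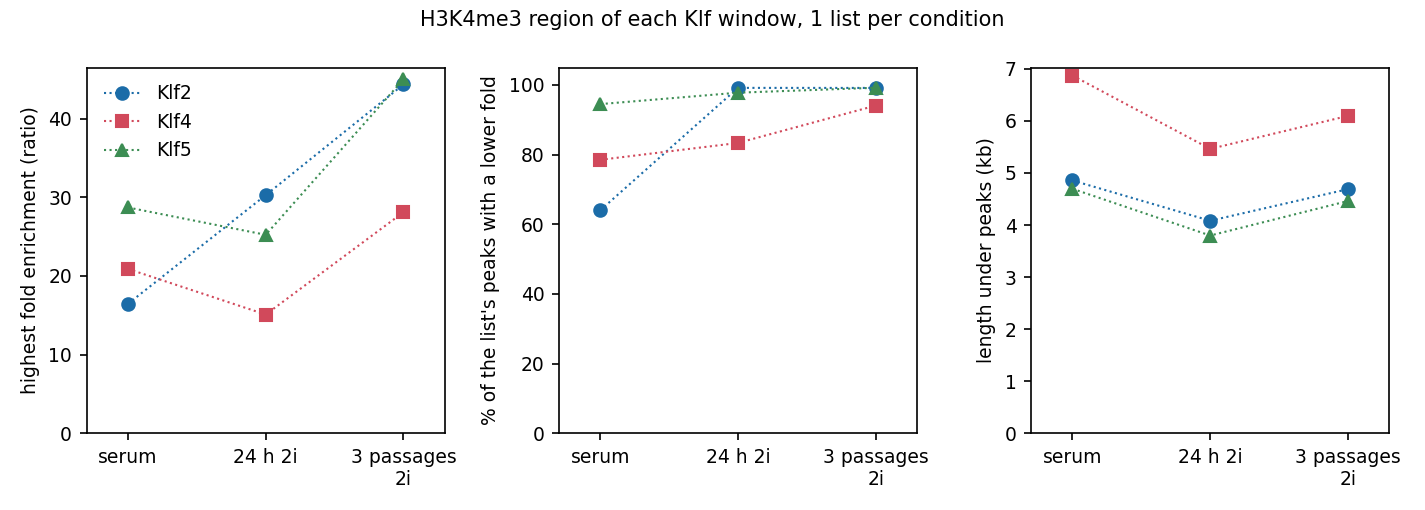
H3K4me3 at the promoter stand-ins of Klf2, Klf4 and Klf5 in serum, at 24 h and at 3 passages of 2i: the highest fold over control, the percent of the list's peaks with a lower fold, and the length covered in kb. Each point is 1 list, for which the labels give 2 samples whose separate values were not used here. The Klf2 point in serum stands above 64.0% of its list and the Klf2 points in 2i above 99.2% of theirs.

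Factor binding at Klf2 centred on a pair of sites that flanked the H3K4me3 region, both called in all 11 lists. The farther of the pair, chr8:74857292-74859560 at 13.4 kb, was the strongest Klf2 site in 10 of 11 lists. With lot 1, its Nanog folds were 53.7 in serum, 36.9 at 24 h and 31.2 at 3 passages. With lot 2, they were 99.3 in TKO cells, 40.3 in KH2 cells at 24 h and 56.6 in GFP-high serum cells. In each of the 6 Nanog lists this peak stood above at least 93.6% of the others, and in the TKO list 263 of 38518 peaks had a higher fold. Sox2 had folds of 25.8 in serum, 23.4 at 24 h and 16.6 at 3 passages, above 94.6%, 97.9% and 94.8% of the lists. Oct4 had a fold of 36.3 at 24 h, above 84.3% of its list, and 24.4 in serum, above 72.9%. All 11 summits fell between 74858328 and 74858364, a span of 36 bp. Of the 1844 sites of the genome with exactly 11 peaks over the 11 lists, the median span was 108 bp (25% to 75%: 81 to 148 bp), and 0.813% had a span of 36 bp or less.

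The nearer site of the pair, chr8:74839457-74840796 at -4.79 kb, ended 1.66 kb short of the H3K4me3 region. Its lot 1 Nanog folds were 35.4 in serum, 31.5 at 24 h and 16.6 at 3 passages, above 91.3%, 90.4% and 79.1% of the lists. With lot 2, the folds were 30.1 in TKO cells, 9.96 in KH2 cells at 24 h and 38.4 in GFP-high serum cells, above 90.1%, 42.0% and 91.4%. The KH2 list at 24 h with lot 2 was thus the only Nanog list in which this site stood below the median, while lot 1 at the same time placed it high. Sox2 had folds of 27.03 in serum, 15.2 at 24 h and 11.9 at 3 passages, and only in the Sox2 serum list did this site exceed the farther one. Oct4 had folds of 17.1 at 24 h and 13.7 in serum, above 35.1% and 22.1% of the lists.

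The ratio of these 2 folds within a list cancels a scale factor common to that list. It does not cancel differences between lists in depth or background, and depth is unknown here. With lot 1 Nanog, the nearer site had 0.659 times the fold of the farther site in serum, 0.852 times at 24 h and 0.530 times at 3 passages. With lot 2 it had 0.302 times in TKO cells, 0.247 times in KH2 cells at 24 h and 0.678 times in GFP-high serum cells. At 24 h in KH2 cells the 2 Nanog lots therefore gave the lowest and the highest Nanog ratio. For Sox2 the ratio was 1.05 in serum, 0.649 at 24 h and 0.717 at 3 passages, and for Oct4 it was 0.471 at 24 h and 0.563 in serum.

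The remaining Klf2 site shared by all 3 factors, chr8:74834731-74835736 at -9.78 kb, was called in 9 lists. Oct4 was called there at 24 h with a fold of 13.3 and not in serum. Nanog lot 1 had folds of 22.7 in serum, 13.0 at 24 h and 7.88 at 3 passages, and lot 2 had 16.1 in TKO cells, no call in KH2 cells at 24 h and 11.3 in GFP-high serum cells. Sox2 had folds of 11.2 in serum, 6.00 at 24 h and 4.40 at 3 passages. A Nanog site on the other side, chr8:74877982-74878888 at 33.7 kb, was called in the 4 Nanog lists from 2i and in neither serum list. There the lot 1 folds were 8.73 at 24 h and 5.78 at 3 passages, and the lot 2 folds were 13.7 in TKO cells and 7.51 in KH2 cells. In the same order, these peaks stood above 35.6%, 15.9%, 66.7% and 18.3% of the lists. The site at 33.7 kb was named after its values had been seen. The share of genome sites with this pattern of calls was not computed.

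**Figure D2:**
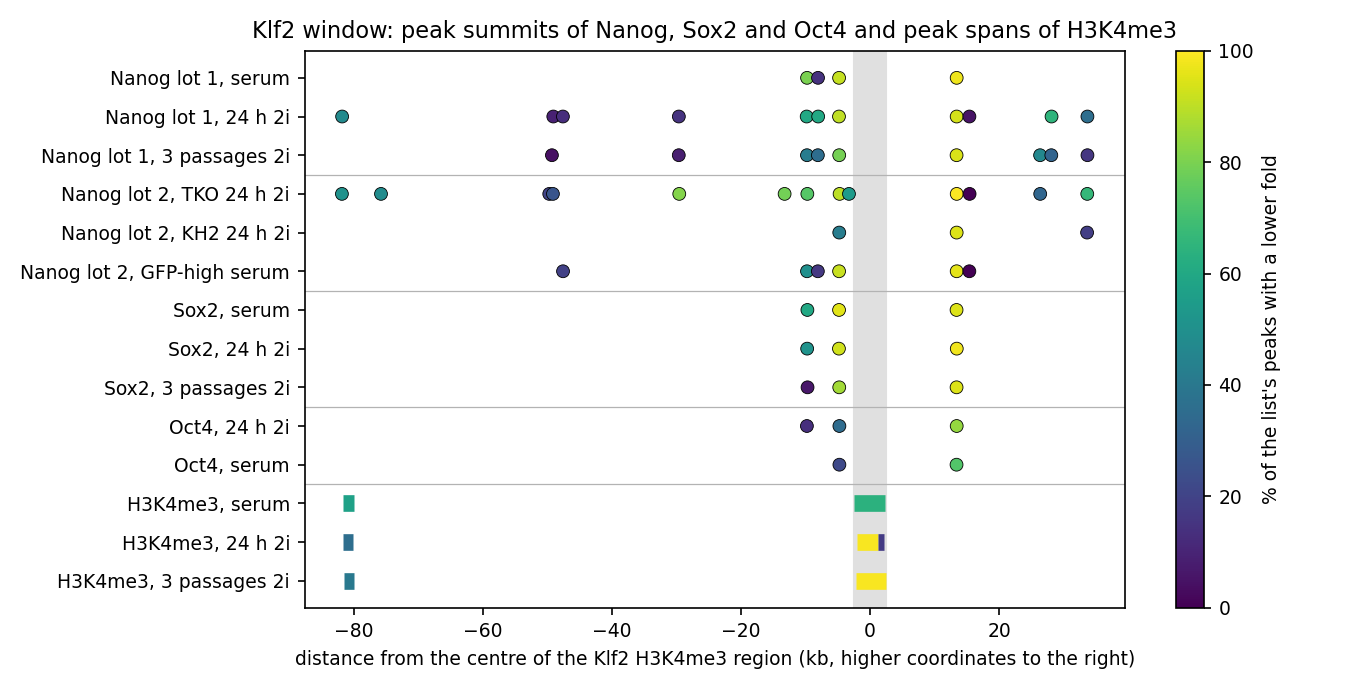
Peaks of the Klf2 window in the 14 lists (vertical axis) by distance in kb from the centre of the Klf2 H3K4me3 region (horizontal axis). Circles are summits of factor peaks, bars are spans of H3K4me3 peaks, the colour gives the percent of the list's peaks with a lower fold, and the grey band is the H3K4me3 region. The sites at -4.79 and 13.4 kb are filled in all 11 factor lists, and the TKO list has the most peaks, 13.

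Klf4 differed in layout: its strong sites formed a cluster on the side of lower coordinates, downstream by the RefSeq strand. The site chr4:55476023-55478243 at -66.2 kb was the strongest Klf4 site in 8 of 11 lists. Lot 1 Nanog folds were 57.8 in serum, 42.4 at 24 h and 29.3 at 3 passages, each above at least 93.3% of its list. Lot 2 folds were 74.0 in TKO cells, 37.6 in KH2 cells at 24 h and 63.3 in GFP-high serum cells, above 98.4%, 93.7% and 97.1%. The peak was thus near the top of all 6 Nanog lists. Sox2 had folds of 29.2 in serum, 11.4 at 24 h and 9.38 at 3 passages, above 96.7%, 85.2% and 75.5% of the lists. Oct4 folds were 34.5 at 24 h and 29.4 in serum, above 82.4% and 83.0%.

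The cluster held 2 more sites called in all 11 lists. At chr4:55487799-55489289 (-55.1 kb), Nanog folds were 38.1 in serum, 28.4 at 24 h and 26.1 at 3 passages with lot 1, and 51.4 in TKO cells, 34.3 in KH2 cells at 24 h and 44.1 in GFP-high serum cells with lot 2. Sox2 folds there were 12.0 in serum, 8.93 at 24 h and 9.34 at 3 passages, and Oct4 folds were 15.5 at 24 h and 11.8 in serum. Nanog stood above 88.0% or more of each of its lists at this site, and Oct4 above 26.0% at 24 h and 11.02% in serum. At chr4:55489367-55491304 (-53.2 kb), Oct4 folds were 34.8 at 24 h and 27.4 in serum, and Sox2 folds were 11.2 in serum, 13.6 at 24 h and 6.03 at 3 passages. Nanog folds at this site were 38.1 in serum, 25.3 at 24 h and 18.7 at 3 passages with lot 1, and 32.3 in TKO cells, 25.2 in KH2 cells at 24 h and 39.0 in GFP-high serum cells with lot 2. It was the strongest Klf4 site for Oct4 and for Sox2 at 24 h, and Oct4 stood there above 82.7% of its list at 24 h and 79.1% in serum. The -53.2 kb site also met an H3K4me3 peak, at chr4:55489679-55490237, which was called at 24 h with a fold of 4.24 and at 3 passages with a fold of 6.77, and not in serum. Both folds were low for H3K4me3, above 9.49% and 29.6% of the lists.

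A further Klf4 site stood apart by cell line. At chr4:55528247-55529418 (-14.6 kb), lot 2 Nanog had a fold of 158.6 in TKO cells, 20.4 in KH2 cells at 24 h and 10.5 in GFP-high serum cells. In the TKO list 38 of 38518 peaks had a higher fold, while the site stood above 80.1% of the KH2 list and 44.5% of the GFP-high list. Lot 1 had folds of 12.7 in serum, 26.7 at 24 h and 21.9 at 3 passages, above 53.3%, 86.5% and 87.4% of the lists. With either lot the KH2 lists from 2i thus placed the site higher among their peaks than the serum lists did. Relative to the -66.2 kb site of the same list, its fold was 2.14 times in TKO cells, 0.542 times in KH2 cells at 24 h and 0.166 times in GFP-high serum cells. With lot 1 this ratio was 0.220 in serum, 0.629 at 24 h and 0.748 at 3 passages. The ratio was chosen after the values had been seen, and the TKO list is 1 sample. Sox2 was called there at 24 h only, with a fold of 4.42, and Oct4 in neither list. This Sox2 peak had a −log10 q of 3.93, below the lowest values of the Sox2 lists in serum (17.3) and at 3 passages (7.52). Chromosome 4 held 5.77% of the TKO peaks, while its share in the other Nanog lists was 6.00% to 6.18%. A share of peak numbers does not bear on the fold at 1 site, and the cause of the high TKO fold was not tested.

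Nearer to the gene, chr4:55531958-55533173 (-10.9 kb) was called in all 6 Nanog lists. The Nanog folds were 13.2 in serum, 15.8 at 24 h and 11.8 at 3 passages with lot 1, and 7.58 in TKO cells, 11.3 in KH2 cells at 24 h and 9.15 in GFP-high serum cells with lot 2. Sox2 and Oct4 were called there at 24 h only, with folds of 4.30 and 13.7. The Sox2 peak had a −log10 q of 5.92, below the lowest values of the Sox2 lists in serum (17.3) and at 3 passages (7.52). In the TKO list this peak stood above 12.9% of the others, in contrast to the peak at -14.6 kb. Within the Klf4 H3K4me3 region itself, 2 Nanog peaks were called, chr4:55541877-55542524 in TKO cells (fold 9.39) and chr4:55545634-55546410 at 24 h with lot 1 (fold 5.69). No factor peak fell within the H3K4me3 region of Klf2 or Klf5. The only site without Nanog in any window was chr4:55468080-55468505 at -75.3 kb, called for Oct4 at 24 h with a fold of 14.9.

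H3K4me3 at Klf4 was broad and held a middle to high rank. The highest fold was 20.9 in serum, 15.1 at 24 h and 28.1 at 3 passages, above 78.5%, 83.4% and 94.1% of the lists. In serum the mark formed 1 peak of 6872 bp, and 0.192% of that list's peaks were wider. At 24 h it was split into 3 peaks covering 5463 bp, and at 3 passages into 3 peaks covering 6097 bp. The median peak width was 1505 bp in the serum list, 1121 bp at 24 h and 1242 bp at 3 passages, so the 2i lists held narrower peaks in general. A weaker region, chr4:55527038-55528236 at -16.0 kb, was called in all 3 lists with folds of 4.44 in serum, 3.37 at 24 h and 4.65 at 3 passages, each above 5.36% of its list or less.

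**Figure D3:**
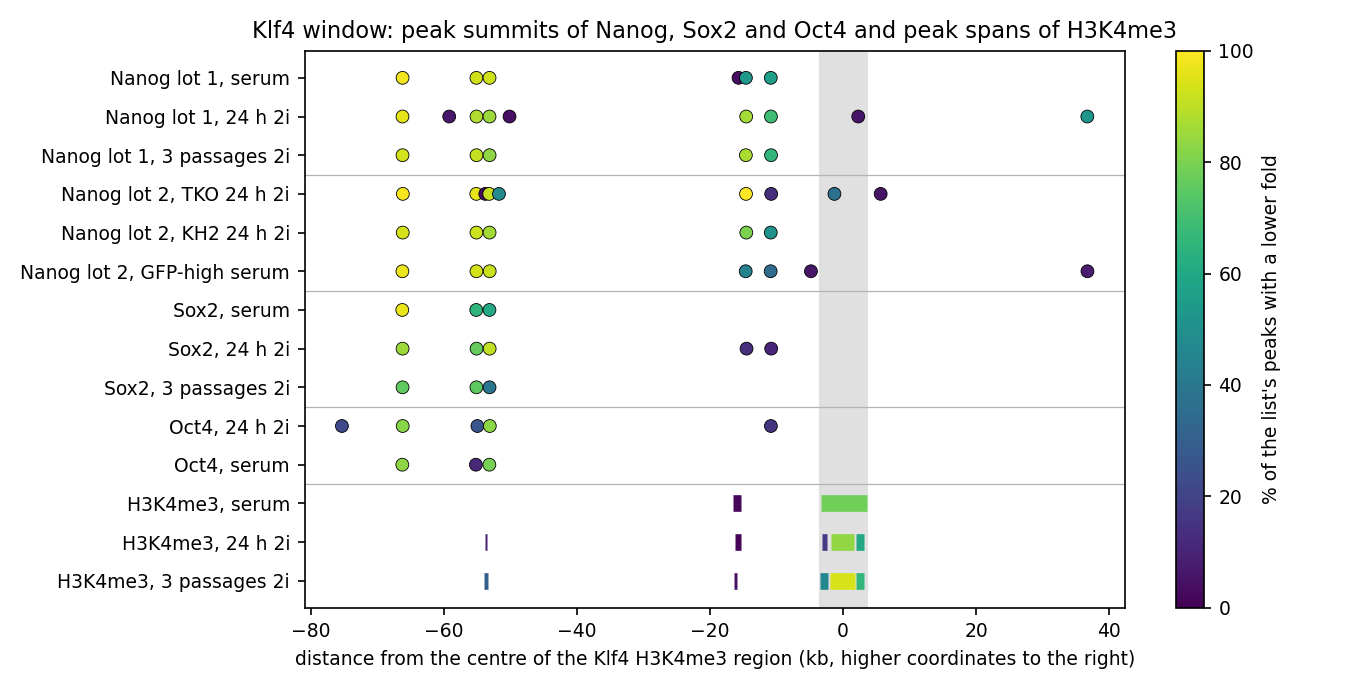
Peaks of the Klf4 window in the 14 lists (vertical axis) by distance in kb from the centre of the Klf4 H3K4me3 region (horizontal axis). Circles are summits of factor peaks and bars are spans of H3K4me3 peaks, coloured by the percent of the list's peaks with a lower fold, and the grey band is the H3K4me3 region. The cluster between -66.2 and -53.2 kb is filled in all 11 factor lists, while the site at -14.6 kb is filled in the 6 Nanog lists and in Sox2 at 24 h.

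Binding at Klf5 was spread over both sides of the gene and no site led in most lists. Across the 11 lists, 6 different sites were the strongest of the window. The sites called in all 11 lists lay at -21.5, 40.0 and 54.0 kb. At chr14:99677322-99678400 (-21.5 kb), Oct4 had a fold of 36.3 at 24 h and 16.6 in serum, above 84.3% and 39.7% of its lists. Lot 1 Nanog folds there were 10.99 in serum, 28.3 at 24 h and 17.5 at 3 passages, above 43.3%, 87.9% and 81.0%. Oct4 and lot 1 Nanog thus placed the site in the middle of their serum lists and high in their lists at 24 h. Lot 2 folds were 26.5 in TKO cells, 13.1 in KH2 cells at 24 h and 12.5 in GFP-high serum cells, above 88.0%, 60.7% and 55.3%. Sox2 folds were 5.95 in serum, 9.75 at 24 h and 6.45 at 3 passages, above 6.54%, 79.9% and 46.7%, so the Sox2 serum peak was among the weakest of its list.

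At chr14:99738191-99740454 (40.0 kb), Nanog folds were 19.4 in serum, 17.0 at 24 h and 16.2 at 3 passages with lot 1, and 23.9 in TKO cells, 18.9 in KH2 cells at 24 h and 17.9 in GFP-high serum cells with lot 2. Sox2 folds were 6.44 in serum, 5.28 at 24 h and 7.70 at 3 passages, and Oct4 folds were 12.6 at 24 h and 8.56 in serum. Nanog stood above 72.1% or more of each list, while Oct4 stood above 10.5% at 24 h and 0.898% in serum. The site met an H3K4me3 peak of the 3-passage list, chr14:99738321-99738978, with a fold of 3.92.

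The region at 54.0 kb, chr14:99751736-99755821, held 19 peaks with 3 groups of summits that different factors used. The first group, at 99752460 to 99752487, was called for Nanog and once for Sox2. Its Nanog folds were 26.5 in serum, 26.5 at 24 h and 9.91 at 3 passages with lot 1, and 33.6 in TKO cells, no call in KH2 cells at 24 h and 6.87 in GFP-high serum cells with lot 2. Sox2 was called there in serum only, with a fold of 9.60. The second group, at 99753329 to 99753424, held Oct4 (30.3 at 24 h and 26.9 in serum) and Sox2 (9.85 in serum, 5.11 at 24 h and 6.97 at 3 passages) and no Nanog peak. The last group, at 99754503 to 99754837, held Nanog in all 6 lists and Oct4 in both, and no Sox2. Its Nanog folds were 9.79 in serum, 8.81 at 24 h and 13.7 at 3 passages with lot 1, and 12.2 in TKO cells, 13.0 in KH2 cells at 24 h and 10.6 in GFP-high serum cells with lot 2. Oct4 folds in this group were 14.5 at 24 h and 11.5 in serum.

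The other Klf5 sites were partly shared. At chr14:99723176-99725604 (24.7 kb), called in 10 lists, Nanog folds were 16.5 in serum, 9.61 at 24 h and 6.00 at 3 passages with lot 1, and 12.7 in TKO cells, no call in KH2 cells at 24 h and 11.2 in GFP-high serum cells with lot 2. Sox2 had folds of 11.3 in serum, 3.97 at 24 h and 4.01 at 3 passages, and Oct4 had 8.21 at 24 h and 8.56 in serum, above 0.320% and 0.898% of its lists. These Oct4 folds were among the lowest of lists that hold only strong calls, with −log10 q of at least 85.9 at 24 h and 86.4 in serum. In the KH2 list at 24 h with lot 2, both this site and the first summit group at 54.0 kb were missing. At chr14:99674244-99675533 (-24.7 kb), called in 8 lists and without Oct4, Nanog folds were 49.8 in TKO cells, 16.6 in KH2 cells at 24 h and 15.1 in GFP-high serum cells with lot 2. With lot 1 they were 19.3 in serum, 19.9 at 24 h and 28.5 at 3 passages, and Sox2 had 9.03 in serum and 5.55 at 3 passages. This was the strongest Klf5 site in the TKO list and in lot 1 at 3 passages. Site chr14:99665476-99666570 (-33.3 kb) was called in 24 h lists alone, with 6.75 for TKO Nanog, 4.79 for lot 1 Nanog and 12.8 for Oct4. These peaks stood low, above 5.87%, 1.20% and 11.1% of the lists. At 24 h, lot 2 Nanog in KH2 cells and Sox2 had no call there. Site chr14:99659792-99660730 (-38.9 kb) held Nanog in 5 lists, with 14.1 at 24 h and 13.3 at 3 passages with lot 1 and 17.3 in TKO cells, 21.8 in KH2 cells at 24 h and 10.8 in GFP-high serum cells with lot 2, and it was not called in lot 1 serum.

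H3K4me3 at the Klf5 stand-in was high in all 3 lists. The highest fold was 28.7 in serum, 25.2 at 24 h and 45.02 at 3 passages, above 94.5%, 97.8% and 99.2% of the lists. It covered 4696 bp in serum, 3798 bp at 24 h and 4461 bp at 3 passages. Away from it, chr14:99711690-99712756 was called in serum only (fold 5.99), and chr14:99694347-99694854, chr14:99738321-99738978 and chr14:99758985-99759688 were called at 3 passages only, with folds of 5.41, 3.92 and 7.59. These 4 peaks stood above 36.1% of their lists or less.

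**Figure D4:**
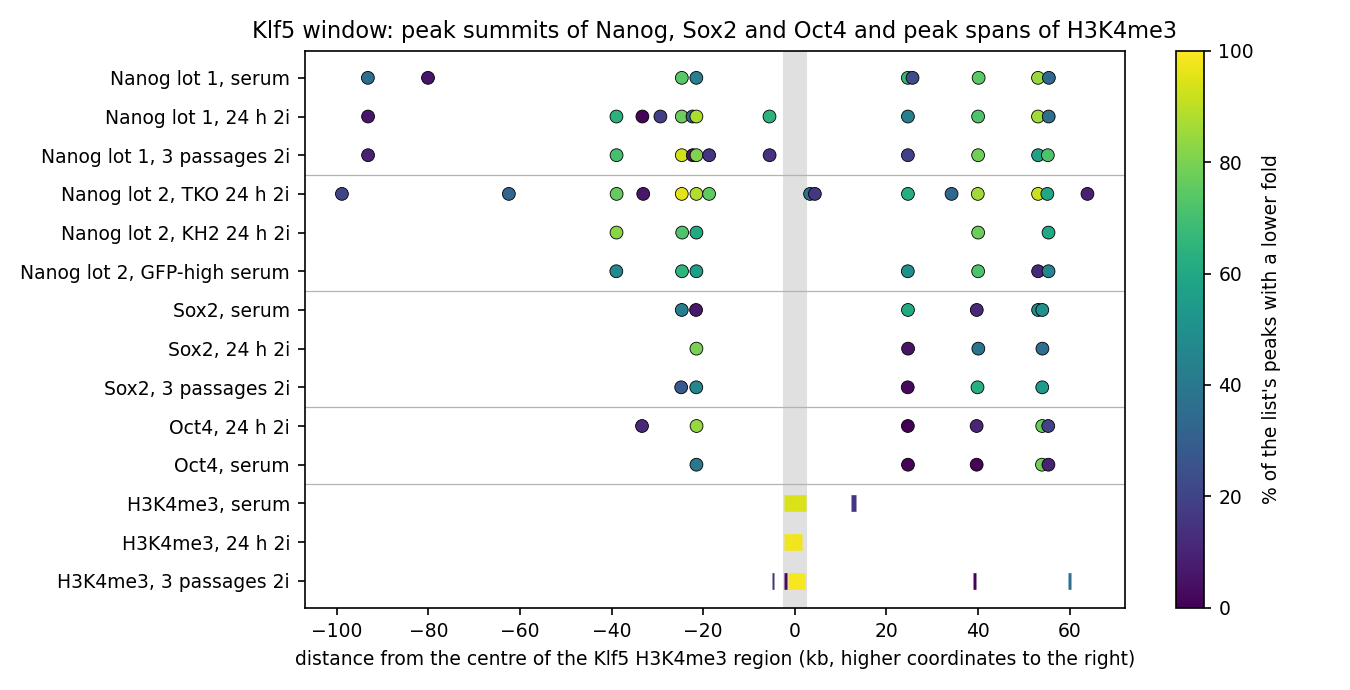
Peaks of the Klf5 window in the 14 lists (vertical axis) by distance in kb from the centre of the Klf5 H3K4me3 region (horizontal axis). Circles are summits of factor peaks and bars are spans of H3K4me3 peaks, coloured by the percent of the list's peaks with a lower fold, and the grey band is the H3K4me3 region. Peaks lie on both sides of the band, and the sites at -21.5 and 40.0 kb are filled in all 11 factor lists. The long site at 54.0 kb has peaks in all 11 lists, but in separate groups of summits. No group there holds Nanog, Sox2 and Oct4 together.

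Regions called in both or in only 1 of 2 conditions were then counted over the 3 windows, joining 2 lists at a time, and set beside the same shares over the whole genome. Intervals are exact binomial 95% intervals and cover counting error only. For lot 1 Nanog, 24 h in 2i against serum gave 35 regions, of which 16 (45.7%, 28.8 to 63.4%) were called at 24 h only, where 44.5% of all regions were, 3 in serum only, where 8.95% were, and 16 in both, where 46.5% were. Klf2 had 7 of its 11 regions at 24 h only and 0 in serum only, Klf4 had 4 of 10 and 1, and Klf5 had 5 of 14 and 2. Shares in the windows were thus close to those in the genome. After the 24 h list was shortened to the length of the serum list, 6 of 25 regions (24%) were called at 24 h only, and 24.0% of all regions were under the same setting. The highest folds among peaks called at 24 h only were 14.4 at chr8:74872807-74873312 (Klf2), 11.3 at chr4:55580064-55580657 (Klf4) and 14.2 at chr14:99693554-99694097 (Klf5). The highest among those in serum only were 6.42 at chr4:55527644-55528242 (Klf4) and 8.64 at chr14:99724895-99725604 (Klf5).

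At 3 passages against serum, lot 1 Nanog gave 28 regions, with 9 (32.1%, 15.9 to 52.4%) at 3 passages only against 36.4% in the genome, 3 in serum only against 16.9%, and 16 in both against 46.8%. Klf2 held 5 of these 9 and Klf5 the other 4. The highest folds among them were 8.45 at chr8:74871049-74871628 (Klf2) and 13.3 at chr14:99660069-99660716 (Klf5). Klf4 had 0 regions at 3 passages only: every lot 1 Nanog region of its window at 3 passages was also called in serum. Between 3 passages and 24 h, 23 of 34 regions were called in both, against 60.5% in the genome, 2 at 3 passages only, against 10.7%, and 9 at 24 h only, against 28.8%. All of the Klf4 regions called at 24 h only over serum, 4 in number, were absent again from the list at 3 passages. Apart from chr4:55580064-55580657 they were weak, with 24 h folds of 5.79, 5.42 and 5.69, above 6.19%, 3.97% and 5.52% of the list. The list at 3 passages was also shorter, with 33185 peaks against 41755 at 24 h. The share of such regions over the genome was not computed. The highest 24 h fold absent at 3 passages was 10.4 at Klf2 (chr8:74762879-74763278), 11.3 at Klf4 (chr4:55580064-55580657) and 7.09 at Klf5 (chr14:99669590-99670372), and the highest the other way was 8.45 at Klf2 (chr8:74871049-74871628) and 5.73 at Klf5 (chr14:99680488-99680887).

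With lot 2, more regions were called in serum only than at 24 h only. The serum cells of this lot had been sorted as GFP-high, and its KH2 list at 24 h was the shortest Nanog list. KH2 cells at 24 h against GFP-high serum cells gave 21 regions, with 1 at 24 h only against 19.2% in the genome, 8 in GFP-high serum only against 33.2%, and 12 in both against 47.6%. The 1 region at 24 h only was the 33.7 kb site of Klf2. The highest GFP-high folds without a call at 24 h were 11.3 at chr8:74834796-74835413 (Klf2), 6.39 at chr4:55580041-55580583 (Klf4) and 11.2 at chr14:99723692-99724606 (Klf5). Lot and sort cannot be told apart here, since no GFP-high list was made with lot 1.

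The largest share called in only 1 list was that of TKO cells, whose list held 38518 peaks against 21893 in KH2 cells. Against KH2 cells at 24 h with the same lot, 23 of 36 regions (63.9%, 46.2 to 79.2%) were called in TKO cells only, where 51.8% of all regions were, and 0 in KH2 cells only, where 15.2% were. The genome share for TKO cells only lay within the interval of the windows, and that for KH2 cells only lay above it (0 to 9.74%). These positions are not a test, since neighbouring regions from 1 list per cell line are not independent and the lists differ in length. The remaining 13 were called in both, against 33.1%. Klf2 had 10 of 13 regions in TKO cells only, Klf4 3 of 8 and Klf5 10 of 15. With the TKO list shortened to the length of the KH2 list, 12 of 25 regions were called in TKO cells only and 1 in KH2 cells only, against 29.7% and 29.7% of all regions under the same setting. The highest TKO-only folds were 20.1 at chr8:74814832-74815611 (Klf2), 10.3 at chr4:55491623-55492120 (Klf4) and 33.6 at chr14:99752218-99752724 (Klf5). The TKO list had 6.51% of its peaks on chromosome 8 (6.26 to 6.76%), against 4.71% to 5.07% in the KH2 Nanog lists. The part of this larger share in the Klf2 result was not tested. Chromosome 14, which holds Klf5, had 3.73% of the TKO peaks and 4.19% to 4.49% in the KH2 lists. Over the 11 factor lists, 12 of the 49 sites were called in the TKO list alone, against 19.8% in the genome.

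**Figure D5:**
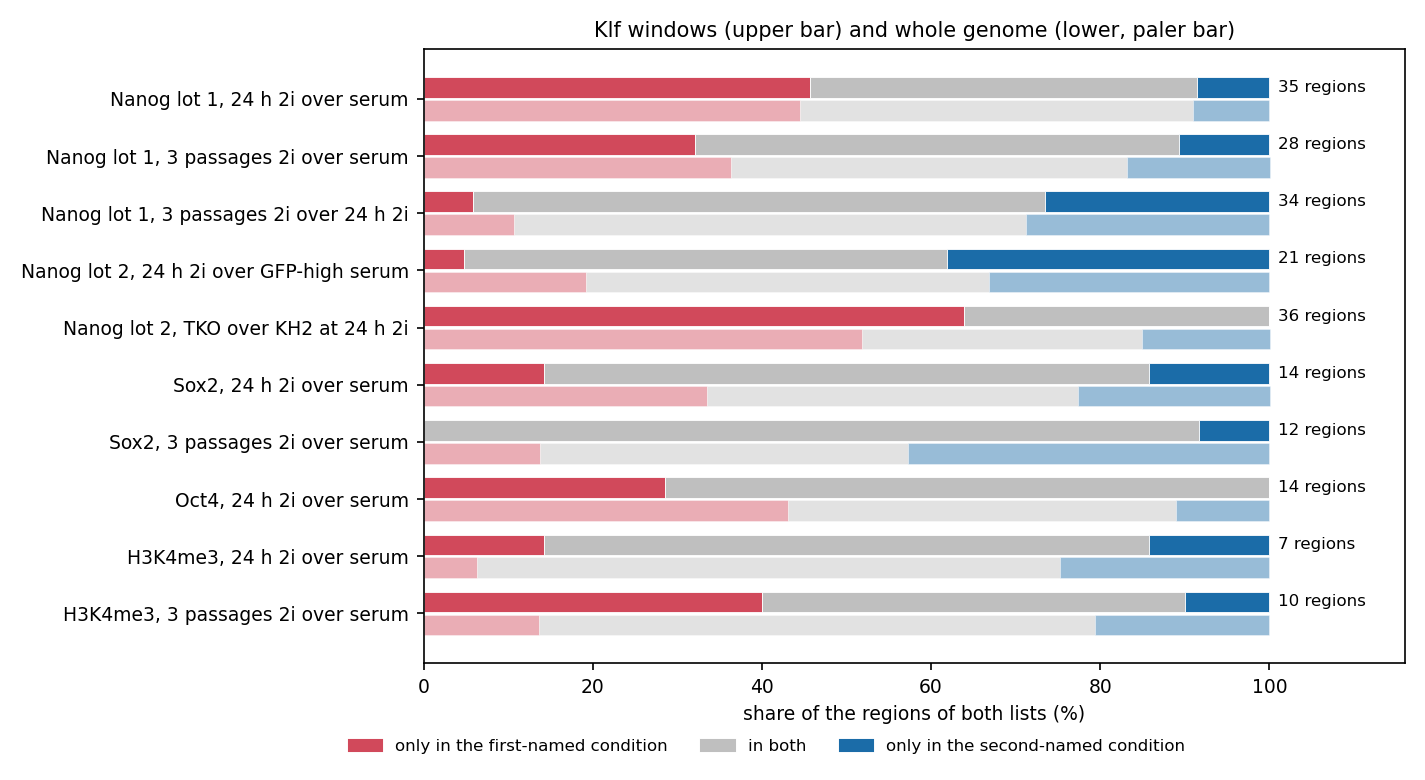
Share of regions (percent) called in both lists or in only 1 of the 2 lists for each comparison, in the 3 Klf windows (upper bar of each pair) and in the whole genome (lower, paler bar). Each comparison rests on 1 list per condition. In the comparison of TKO with KH2 cells, 0 regions of the windows were called in KH2 cells only, against 15.2% in the genome.

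In the full lists, most Sox2 and Oct4 regions of the windows were called in both conditions. Sox2 at 24 h and in serum had 10 of 14 regions in both (71.4%, 41.9 to 91.6%), against 43.9% in the genome, with 2 at 24 h only against 33.5% and 2 in serum only against 22.7%. The 2 at 24 h only were the Klf4 sites at -14.6 and -10.9 kb, with folds of 4.42 and 4.30. Of those in serum only, the higher fold was 9.60 at chr14:99752288-99752624 (Klf5). Sox2 at 3 passages and in serum had 11 of 12 regions in both (91.7%, 61.5 to 99.8%), against 43.5%, 0 at 3 passages only, against 13.8%, and the same Klf5 region in serum only, against 42.6%. These Sox2 counts depended on the limits of the lists. With the lower limit on −log10 q set at the stricter of the 2 lists, Sox2 at 24 h and in serum shared 6 of 12 regions, against 28.3% in the genome, with 0 at 24 h only, against 3.57%, and 6 in serum only, against 68.1%. Under the same setting, Sox2 at 3 passages and in serum shared 8 of 12, against 28.1%, with 4 in serum only, against 69.0%. Oct4 at 24 h and in serum had 10 of 14 regions in both, against 45.8%, 4 at 24 h only, against 43.1%, and 0 in serum only, against 11.1%. Those at 24 h only were the -9.78 kb site of Klf2 (fold 13.3), the -75.3 and -10.9 kb sites of Klf4 (14.9 and 13.7) and the -33.3 kb site of Klf5 (12.8). All 4 stood low in the Oct4 list, above 22.6% of its peaks or less.

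H3K4me3 regions at 24 h and in serum were shared in 5 of 7 cases, against 69.0% in the genome, with 1 at 24 h only (the -53.6 kb region of Klf4), against 6.27%, and 1 in serum only (at Klf5), against 24.7%. The region at 24 h only was lost when −log10 q of at least 10 was asked for, leaving 0 of 6, against 0.661% in the genome. When regions were joined only by summits within 250 bp, 2 of 13 were shared between 24 h and serum, and 3 of 15 between 3 passages and serum. The genome shares under this setting were not computed, so these low counts are not shown to be particular to the Klf windows. At 3 passages and in serum, 5 of 10 regions were shared, against 65.8%, with 4 at 3 passages only, against 13.6%, and 1 in serum only, against 20.6%. The 4 were the -53.6 kb region of Klf4 and the 3 weak regions of the Klf5 window. Of the 49 factor sites, 6 met an H3K4me3 peak of any list (1 at Klf2, 4 at Klf4 and 1 at Klf5), against 12.3% of factor sites in the genome.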

How the data were processed

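Peaks came from 14 deposited ChIP-seq lists in mm9 coordinates, made from 22 of the 36 samples in the labels. The other samples were not analysed here. Alignment with BWA 0.5.7 or Bowtie 0.12.7 and peak calling with MACS2 are named, without further detail, in the submitters' processing notes. The deposited peak names speak of pooled replicates, but 6 lists have 1 sample in the labels. What was pooled, how each list was selected and which control served for TKO cells are not stated in the labels. For each deposited peak the authors give a fold, which is a ratio to their control, and a q-value written as −log10 q. The deposited offset of the summit was added to the peak's start. The lists hold no read counts, so depth is unknown and intervals cover counting error in numbers of regions only.

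Computed here with Python 3.11.15, pandas 2.3.3, numpy 2.4.6 and scipy 1.17.1 (figures with matplotlib 3.10.9) were the merging of peaks that overlap by at least 1 bp into sites, on chromosomes 1 to 19, X and Y, the rank of each fold within its list, shares of regions with exact binomial 95% intervals, and motif matches. The overlap step was tested on simulated peaks. With 1 list per condition no test was run. Named were the promoter stand-ins, sites called in all 11 factor lists, sites with at least 2 factors in serum or at 24 h, and per comparison and window the peak called in 1 list only that had the highest fold. The sites at 33.7 and -38.9 kb and the peaks within H3K4me3 regions were named after their values were seen. The members and lists were chosen with earlier results of these data known. Alternatives were −log10 q of at least 10, the larger of the lists' lowest −log10 q, equal list lengths, overlap of 50% of the shorter peak, joining up to 1000 bp, and summits within 250 bp. The last setting for H3K4me3, and every setting for the share called only in the list of the comparison's baseline, were added after the data had been seen.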

Additional observations from a re-analysis of the deposited data

Results flagged for a closer look

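At 3 sites Nanog was called at 24 h in 2i and not in serum with lot 1, and in GFP-high serum cells and not at 24 h in KH2 cells with lot 2. These opposite calls were not tested. Their number over the whole genome was not counted, so they are not shown to be particular to the Klf windows. In the genome, 44.5% of lot 1 regions were called at 24 h only over serum. With lot 2, 33.2% of regions were called in GFP-high serum cells only. At the Klf4 site chr4:55580041-55580657, the fold was 11.3 at 24 h with lot 1, and 6.39 in GFP-high serum cells with lot 2. At the Klf2 site chr8:74797087-74797483 the folds in the same order were 6.59 and 7.59. At the Klf2 site chr8:74860099-74860744 they were 5.52 and 4.29, and Nanog was also called there in TKO cells, with a fold of 4.55. Antibody lot and the GFP sort differ together between these lists and cannot be told apart.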

How the results depend on the processing

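Of 219 values under other settings, covering 39 counts and shares, 206 kept within 1.5 times (counts of sites) or within the exact binomial interval (shares) of the reported value and 13 did not. Every Nanog and Oct4 peak lies above a −log10 q of 10, so that setting could not move the comparisons of these lists. The intervals rest on few regions and are wide, so a kept value can still differ from the reported one. For example, the TKO-only share at equal list length was 48%, against 63.9% as reported, and counts as kept. At equal list length, 24% of lot 1 Nanog regions were called at 24 h only over serum, against 45.7% as reported, and in the comparison of 3 passages with 24 h the share called at 24 h only was 10.7%, against 26.5%. With −log10 q of at least 10, and with the larger lowest −log10 q of the lists, the share called at 24 h only over serum was 0% for Sox2 and 0% for H3K4me3 under both settings, against 14.3% as reported for each. The serum-only share for Sox2 in that comparison was 50% with the larger lowest −log10 q, against 14.3%. With peaks joined up to 1000 bp, 100% of Sox2 regions were shared between 3 passages and serum and 0% were called in serum only, and the factor sites that met H3K4me3 numbered 2 at Klf2 and 3 at Klf5. With the serum H3K4me3 list alone, 0 Klf5 factor sites met the mark. With regions joined by summits within 250 bp, 15.4% of H3K4me3 regions were shared between 24 h and serum, against 71.4% as reported. The genome share under this setting was not computed, and the cause of the lower share was not tested. No paired analysis was possible because each condition has 1 list and the lists hold no values per replicate, and for the same reason no replicate could be left out. Depth is unknown, so a missing call may reflect a list's limit and not an absence of binding: Oct4 lists end at −log10 q of 85.9 at 24 h and 86.4 in serum, while the Sox2 list at 24 h goes down to 3.69.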
